A study of Mus musculus with 77 samples.

Results

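Cell division genes were followed in the livers of mice with diet-induced obesity and metabolic dysfunction-associated steatohepatitis (DIO-MASH mice) that were treated with semaglutide, a long-acting agonist of the GLP-1 receptor, or changed back to chow. The 48 genes were taken by name as cyclins, replication, kinetochore and mitosis genes. All 48 are among the 55487 genes of the count table, and all 48 are among the 14904 genes that passed the filter on low counts and were tested. Bulk RNA was sequenced from the left lateral lobe of 77 male C57BL/6JRj mice, which were obtained at 5 to 6 weeks of age. DIO-MASH mice were housed singly after their biopsy. DIO-MASH mice ate the Gubra Amylin NASH diet (40% of calories from fat, with 22% fructose, 10% sucrose and 2% cholesterol) for 34 weeks, were included by liver biopsy and were then randomised. The semaglutide mice received 123 µg/kg once daily under the skin, a dose reached on day 5, for 8, 16 or 24 weeks (7, 8 and 8 mice). The chow reversal mice received vehicle and were changed to chow for 8, 16 or 24 weeks (7, 8 and 8 mice). The vehicle mice received vehicle alone for 8, 16 or 24 weeks (9, 8 and 7 mice). Lean chow mice, fed chow throughout, received vehicle for 24 weeks (7 mice). The libraries held 8883150 to 37631072 estimated counts, with a median of 16406937. Levels are given as CPM, which are counts relative to the size of the library after TMM scaling, a correction for composition. A gene is called higher or lower where the adjusted p of edgeR's quasi-likelihood test is below 0.05 over all tested genes.

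In the G1 phase a cell decides whether to divide. D- and E-type cyclins then activate kinases that release E2F transcription factors, and E2F targets copy the genome in S phase. Mitotic cyclins with Cdk1, the Aurora and Polo kinases, the kinetochore and the spindle later part the copied chromosomes. In the adult liver nearly all hepatocytes rest outside this cycle, and division is known to resume after injury or loss of tissue. In whole-liver RNA, fewer dividing cells and less of these RNAs per cell cannot be told apart, nor can the type of the dividing cell be read.

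The promoters of these genes carry short sequences for which cell cycle factors are known, and the sequences are printed for 5 mitotic genes, 2 helicase genes and 2 nucleotide genes because their levels are set side by side. RefSeq promoter windows of build GRCm38.p6, each from 250 bases before to 50 bases after the gene start, were matched for 39 of the 48 genes. The core of the cell cycle homology region (TTTGAA), the NF-Y type box (CCAAT) and the E2F type sites (TTCCCGC or TTGGCGC) were searched on both strands, with an NF-Y type box allowed to overlap the second E2F form. Capitals mark every match.
Cdc20 (chr4:118437294-118437593, minus strand): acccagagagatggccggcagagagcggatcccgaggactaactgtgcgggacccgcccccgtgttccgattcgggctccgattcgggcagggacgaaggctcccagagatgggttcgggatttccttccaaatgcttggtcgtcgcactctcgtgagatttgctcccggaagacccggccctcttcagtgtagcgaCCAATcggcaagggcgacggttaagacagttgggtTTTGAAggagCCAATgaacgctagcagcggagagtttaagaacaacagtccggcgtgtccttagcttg
Cdk1 (chr10:69352863-69353162, minus strand): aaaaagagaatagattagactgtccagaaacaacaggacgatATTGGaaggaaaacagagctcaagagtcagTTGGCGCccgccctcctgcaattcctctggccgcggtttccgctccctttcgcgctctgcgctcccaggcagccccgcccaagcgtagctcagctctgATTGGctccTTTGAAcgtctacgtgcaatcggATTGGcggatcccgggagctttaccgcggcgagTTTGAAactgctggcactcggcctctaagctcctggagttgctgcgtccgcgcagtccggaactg
Ccnb2 (chr9:70421505-70421804, minus strand): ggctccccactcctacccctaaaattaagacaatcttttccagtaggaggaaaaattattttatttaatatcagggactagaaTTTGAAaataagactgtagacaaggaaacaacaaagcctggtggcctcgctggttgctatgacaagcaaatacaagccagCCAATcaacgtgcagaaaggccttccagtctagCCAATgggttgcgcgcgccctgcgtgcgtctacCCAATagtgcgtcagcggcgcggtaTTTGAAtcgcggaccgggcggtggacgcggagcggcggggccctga
Top2a (chr11:99024140-99024439, minus strand): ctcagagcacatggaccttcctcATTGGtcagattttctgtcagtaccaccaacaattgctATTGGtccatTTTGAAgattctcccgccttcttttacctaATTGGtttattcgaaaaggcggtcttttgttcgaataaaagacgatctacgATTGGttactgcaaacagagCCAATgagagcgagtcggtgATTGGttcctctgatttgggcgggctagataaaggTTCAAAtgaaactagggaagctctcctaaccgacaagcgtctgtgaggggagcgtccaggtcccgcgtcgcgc
Mki67 (chr7:135716330-135716629, minus strand): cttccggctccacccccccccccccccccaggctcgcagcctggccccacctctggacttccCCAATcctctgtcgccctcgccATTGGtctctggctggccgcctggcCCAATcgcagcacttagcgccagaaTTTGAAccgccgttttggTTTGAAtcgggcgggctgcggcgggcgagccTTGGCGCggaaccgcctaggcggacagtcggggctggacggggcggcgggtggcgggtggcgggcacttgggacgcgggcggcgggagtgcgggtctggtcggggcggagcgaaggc
Mcm5 (chr8:75109259-75109558, plus strand): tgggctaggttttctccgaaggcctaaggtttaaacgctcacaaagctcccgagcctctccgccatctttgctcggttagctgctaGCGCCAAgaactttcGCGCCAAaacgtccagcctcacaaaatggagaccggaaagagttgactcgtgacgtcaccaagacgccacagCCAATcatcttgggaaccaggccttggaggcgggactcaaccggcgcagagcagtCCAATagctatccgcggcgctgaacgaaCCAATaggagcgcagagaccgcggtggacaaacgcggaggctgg
Mcm6 (chr1:128359656-128359955, minus strand): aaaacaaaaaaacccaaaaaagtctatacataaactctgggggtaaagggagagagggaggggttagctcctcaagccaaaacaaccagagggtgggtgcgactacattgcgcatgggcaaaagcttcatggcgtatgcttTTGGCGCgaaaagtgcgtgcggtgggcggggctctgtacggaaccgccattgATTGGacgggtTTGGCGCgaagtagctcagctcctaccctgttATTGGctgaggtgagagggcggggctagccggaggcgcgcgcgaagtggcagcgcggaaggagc
Tyms (chr5:30073576-30073875, minus strand): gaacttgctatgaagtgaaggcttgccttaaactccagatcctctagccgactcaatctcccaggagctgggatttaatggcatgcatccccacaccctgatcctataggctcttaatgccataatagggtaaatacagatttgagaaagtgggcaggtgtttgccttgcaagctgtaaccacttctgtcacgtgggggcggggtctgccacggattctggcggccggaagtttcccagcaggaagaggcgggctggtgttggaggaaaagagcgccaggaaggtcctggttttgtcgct
Tk1 (chr11:117825965-117826264, minus strand): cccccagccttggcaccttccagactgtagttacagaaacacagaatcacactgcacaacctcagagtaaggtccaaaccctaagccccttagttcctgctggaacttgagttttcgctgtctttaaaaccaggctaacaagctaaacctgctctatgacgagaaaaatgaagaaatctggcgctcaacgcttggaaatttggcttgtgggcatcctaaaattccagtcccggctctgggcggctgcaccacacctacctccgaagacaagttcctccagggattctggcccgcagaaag
TTTGAA was in the window of 19 of the 24 mitotic genes with a window (79.2%) and of 2 of the 12 replication and nucleotide genes (16.7%), against 18.1% of the 27025 gene windows. CCAAT was in 21 of the 24 mitotic windows (87.5%) and in 9 of the 12 replication and nucleotide windows (75%), against 37.9% of all windows. The E2F type sites were in 4 of the 24 mitotic windows (16.7%) and in 6 of the 12 replication and nucleotide windows (50%), against 6.93% of all windows. Neither the Tyms nor the Tk1 window held any of these letters. A match is a description of the letters, and binding was not measured here.

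**Figure D1:**
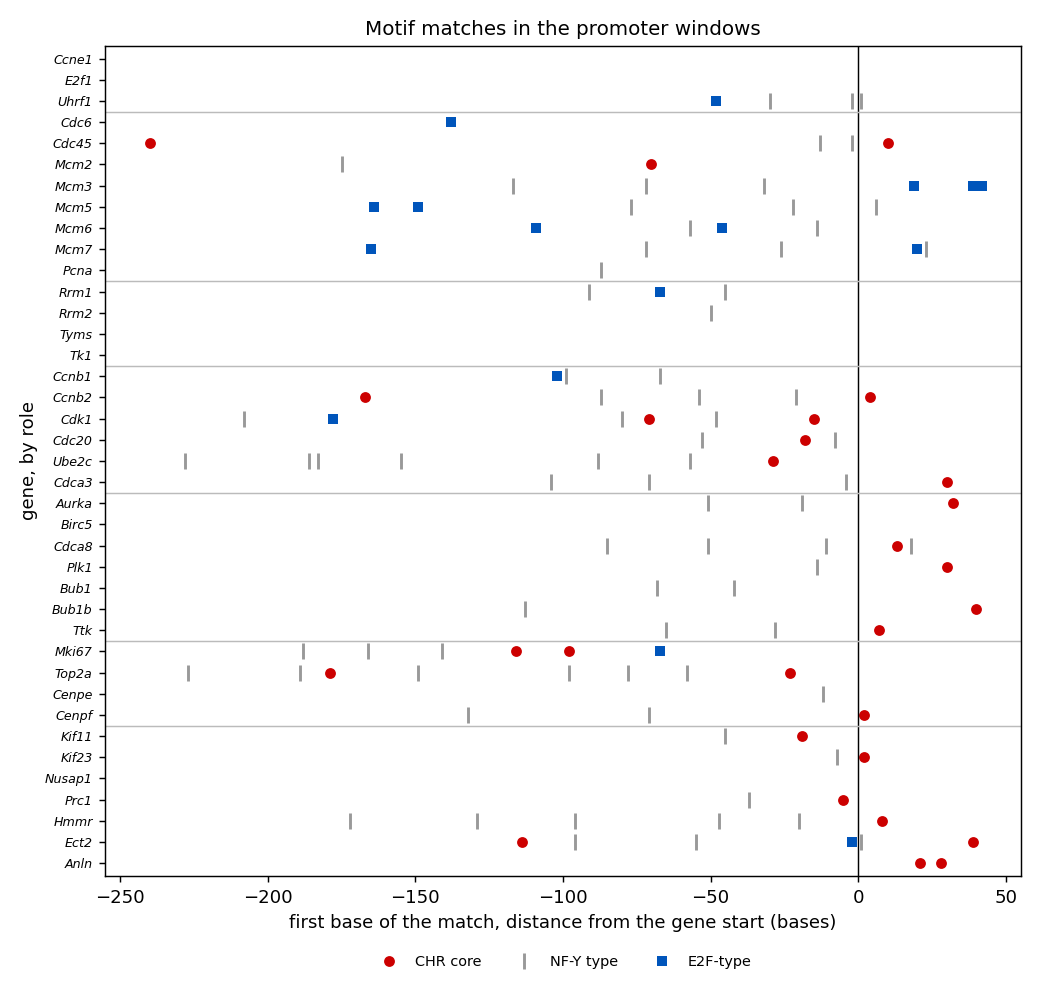
Positions of the searched motifs in the promoter windows of the 39 division genes with a window (horizontal axis, bases from the gene start; 1 row per gene, ordered by role). Each mark is a match on either strand, coloured by motif: TTTGAA marks stand in 19 of 24 mitotic rows and in 2 of 12 replication and nucleotide rows.

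In the vehicle mice most cell division genes were far above the lean level. Against chow mice at 24 weeks, 44 of the 48 were higher in vehicle mice and 1 was lower, where 25.8% of all tested genes were higher and 22% lower. The median log2 fold change was 2.42 over the 48 genes, with a range of -0.88 to 3.71. The highest, that of Cenpe, rests on 0 to 0.42 CPM in chow mice. For 39 of the 48 every vehicle mouse was above every chow mouse (13.9% of all genes). The genes that were not higher were Cdc45 and Mcm7 of the replication helicase and Tyms and Tk1 of nucleotide synthesis, of which Tk1 was the gene called lower.

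Semaglutide lowered most of the 48 genes at 8 and 24 weeks and fewer at 16 weeks. Against vehicle mice, 34 were lower at 8 weeks (3.51% of all genes were lower and 2.24% higher), and the median over the 48 was -1.05 on the log2 scale. At 16 weeks 12 were lower and 1 higher (5.8% of all genes were lower and 6.44% higher), with a median of -0.51. At 24 weeks 39 were lower and 1 higher (13.6% lower and 10.8% higher of all genes), with a median of -1.30. The fold change was below 0 for 47, 42 and 45 of the 48 genes at the 3 times, where the median of all genes stayed near 0. The genes called lower at all 3 times were 12: Mcm2, Ccna2, Ccnb2, Foxm1, Cdc20, Cdca3, Mki67, Top2a, Cenpf, Kif20a, Prc1 and Tpx2. The 13 calls at 16 weeks rest on few libraries. Their number was 4 without vehicle mouse 6, 5 without vehicle mouse 7, 4 without semaglutide mouse 7, and 8 without semaglutide mouse 5 or 8. It was 2 (Ccna2 lower and Tk1 higher) without the 3 semaglutide libraries that carry numbers from a second run of library numbers. Of all genes 4.96% were called in that fit.

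Chow reversal lowered more of them. Against vehicle mice, 42 were lower and 1 higher at 8 weeks (17.9% lower and 14.2% higher of all genes), 39 and 1 at 16 weeks (16.2% and 12.1%), and 40 and 1 at 24 weeks (19.1% and 17%). The median log2 fold changes were -1.72, -1.49 and -1.70. The genes called lower at all 3 times were 38, and those called lower at none were Cdc45, Mcm7, Rrm2, Tyms and Tk1. The semaglutide and the chow reversal comparisons use the same vehicle mice at each time, so they are not independent of each other. In a test of any difference among the 10 groups, 45 of the 48 genes were called, where 59.6% of all genes were, and Ccne1, Cdc45 and Mcm7 were not.

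The balance of calls over all genes moved with the scaling of the libraries. Scaled to library totals in place of TMM, the median of all genes moved to 0.40 on the log2 scale in vehicle against chow mice, and 7776 of 8663 calls over all genes were higher (89.8%), while 46 division genes were higher and 1 lower. With semaglutide the median of all genes moved to -0.14, -0.18 and -0.24 at 8, 16 and 24 weeks, and with chow reversal to -0.31, -0.26 and -0.26. At 24 weeks 510 of 4850 calls over all genes were then higher with semaglutide (10.5%) and 687 of 6140 with chow reversal (11.2%). With TMM the medians of all genes stayed near 0, and the fold changes given here are those.

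**Figure D2:**
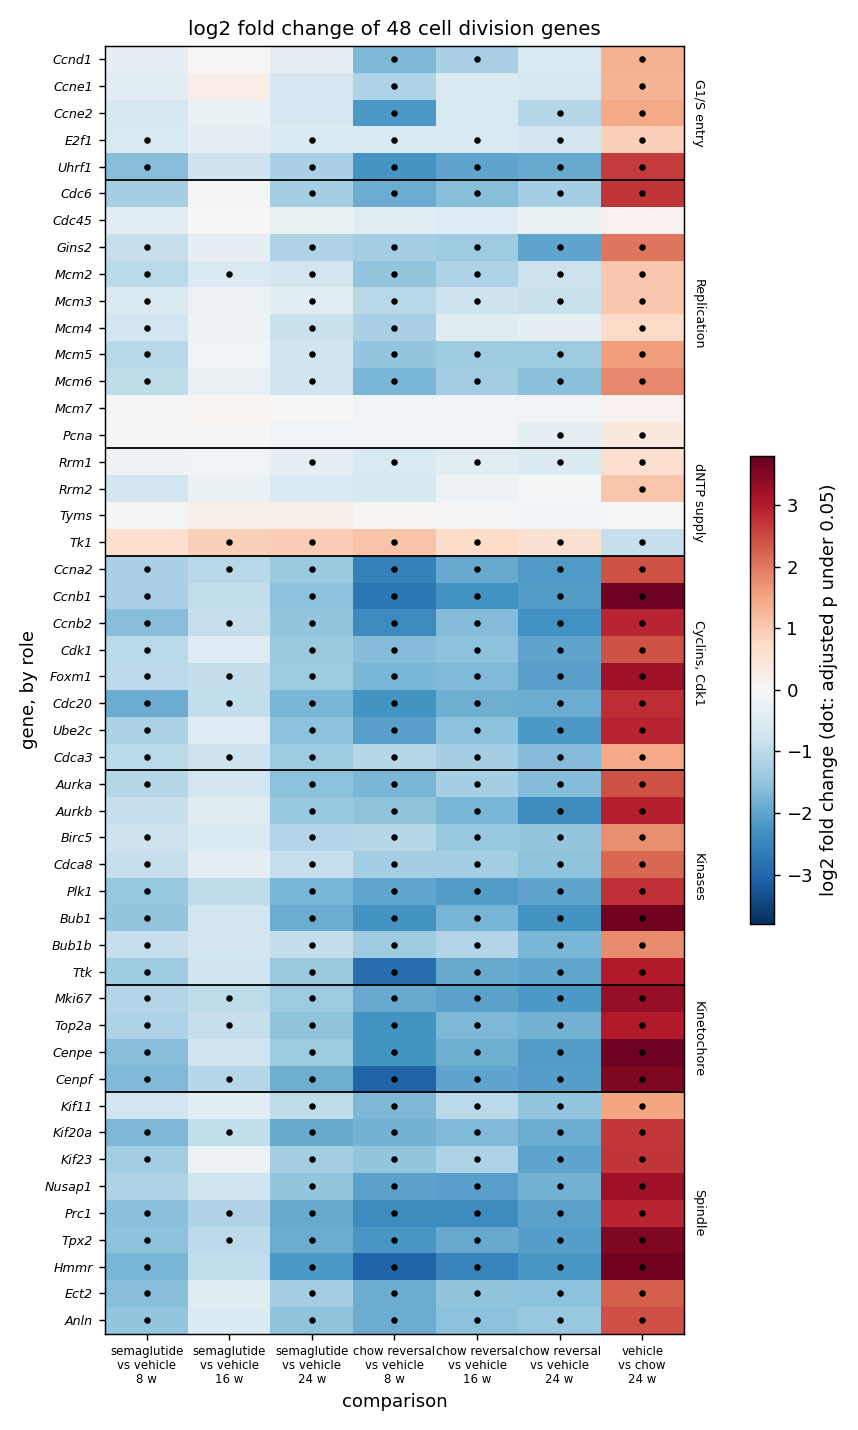
Log2 fold changes of the 48 division genes (rows, ordered by role) in 7 comparisons (columns), with colour for the log2 fold change and a dot where the adjusted p of edgeR's test was below 0.05. In vehicle against chow mice the mitotic rows run from 1.46 to 3.71, and the Tk1 row, at -0.88, has the opposite sign.

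Genes that open the cycle were higher in vehicle mice. All 5 (the cyclins Ccnd1, Ccne1 and Ccne2, the factor E2f1 and the hemimethylated DNA reader Uhrf1) were called against chow mice, with a median log2 fold change of 1.36. Semaglutide lowered 2 of the 5 (E2f1 and Uhrf1) at 8 and at 24 weeks and none at 16 weeks, where the median over the 5 was -0.24. Chow reversal lowered 5, 3 and 3 of them at 8, 16 and 24 weeks. Uhrf1, which guides maintenance DNA methylation during replication, had the largest rise of the group, at 2.66 on the log2 scale (adjusted p = 3.3e-08). With semaglutide Uhrf1 had fold changes of -1.62, -0.80 and -1.23 at the 3 times (adjusted p = 0.00098, 0.084 and 0.0048).

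Ccnd1 encodes cyclin D1, the cyclin that couples growth signals to entry into the cycle. At 8 weeks it had 41.3, 68.6 and 107.3 CPM in semaglutide mice (lowest, median and highest) and 19.5, 25.3 and 35.9 CPM in chow reversal mice, against 72.5, 83.5 and 127.7 CPM in vehicle mice. No chow reversal mouse reached the lowest semaglutide or vehicle mouse, while the semaglutide and vehicle mice overlapped. The log2 fold change at 8 weeks was -0.32 ± 0.28 (SE) for semaglutide against vehicle (adjusted p = 0.58), -1.72 ± 0.29 for chow reversal against vehicle (3.8e-06) and 1.401 ± 0.30 for semaglutide against chow reversal (0.0012). At 24 weeks it had 31.4, 45.2 and 91.7 CPM in semaglutide mice and 19.2, 31.7 and 155.2 CPM in chow reversal mice, against 54.3, 72.3 and 98.9 CPM in vehicle mice and 15.1, 26.4 and 49.6 CPM in chow mice. Every vehicle mouse was above every chow mouse, and both treated groups overlapped the vehicle mice. Vehicle exceeded chow by 1.36 ± 0.30 on the log2 scale (adjusted p = 0.0001). The 24-week contrast with vehicle was -0.38 ± 0.28 for semaglutide (0.33) and -0.58 ± 0.28 for chow reversal (0.099). The chow reversal mouse at 155.2 CPM, mouse 8, stood far above the next at 75.3 CPM and had the lowest summed mitotic level of its group. Without it the chow reversal fold change was -1.10 (adjusted p = 0.00038) and semaglutide exceeded chow reversal by 0.72 (0.046). Ccnd1 shares 23.4% of its exonic bases with Lto1, so its counts may hold reads of that gene.

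E2f1 is an activator of S-phase genes. At 24 weeks it had 2.16, 4.71 and 5.72 CPM in semaglutide mice and 2.97, 3.91 and 4.97 CPM in chow reversal mice, against 4.65, 6.31 and 8.71 CPM in vehicle mice and 2.63, 3.57 and 4.21 CPM in chow mice. The vehicle mice did not overlap the chow mice and overlapped both treated groups. At 8 weeks the semaglutide mice, at 2.47 to 4.67 CPM, were all below the vehicle mice, at 5.03 to 7.74 CPM. For semaglutide against vehicle the log2 fold changes were -0.58 ± 0.16 at 8 weeks (adjusted p = 0.014) and -0.54 ± 0.16 at 24 weeks (0.0081). The 8-week call was lost without semaglutide mouse 1, at -0.49 (0.057). At 24 weeks chow reversal against vehicle gave -0.72 ± 0.16 (0.00018), and vehicle against chow 0.92 ± 0.17 (3.4e-06).

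Replication genes split by how far they moved. Of the 10 genes that load, drive or clamp the replication machinery (Cdc6, Cdc45, Gins2, Mcm2 to Mcm7 and Pcna), 8 were higher in vehicle than in chow mice, with a median log2 fold change of 1.02. Semaglutide lowered 6 of the 10 at 8 weeks, 1 (Mcm2) at 16 weeks and 7 at 24 weeks, with medians of -0.79, -0.17 and -0.73. Chow reversal lowered 7, 6 and 7 of them, with medians of -1.27, -0.97 and -0.83. Mcm6, a subunit of the MCM helicase, averaged 7.22 ± 2.79 CPM in semaglutide mice and 4.12 ± 1.77 CPM in chow reversal mice at 24 weeks (SD, n = 8 each), against 12.3 ± 1.31 CPM in vehicle and 3.45 ± 0.574 CPM in chow mice (n = 7 each). Its log2 fold change against vehicle was -0.97, -0.29 and -0.76 at 8, 16 and 24 weeks of semaglutide (adjusted p = 0.0021, 0.37 and 0.0063) and -1.72, -1.32 and -1.57 with chow reversal (1.1e-08, 1.3e-06 and 2.6e-08). Gins2, a subunit of the GINS part of the helicase, had a log2 fold change of 2.05 between vehicle and chow mice (1.7e-08).

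Pcna, the sliding clamp of DNA polymerase, changed little in any group. At 24 weeks it had 29.9, 34.7 and 48.1 CPM in semaglutide mice and 27.03, 31.3 and 34.7 CPM in chow reversal mice, against 36.6, 39.4 and 44.9 CPM in vehicle mice and 27.5, 30.4 and 32.4 CPM in chow mice. The vehicle mice were all above the chow and the chow reversal mice and overlapped the semaglutide mice. Vehicle exceeded chow by 0.38 ± 0.08 on the log2 scale (adjusted p = 6.6e-05). The fold change at 24 weeks was -0.14 with semaglutide (0.18) and -0.35 ± 0.08 with chow reversal (0.00022), and semaglutide exceeded chow reversal by 0.21 (0.046). Semaglutide mouse 8, of the second run of library numbers, held the 48.1 CPM, and the next mouse 36.8 CPM. Without mouse 8 Pcna was called lower with semaglutide than with vehicle, at -0.21 (0.027). The excess over chow reversal was then 0.13 (0.19), and that call was also lost without semaglutide mouse 1, 4 or 7 or chow reversal mouse 1, 3, 5 or 6. Mcm7, another helicase subunit, had 11.5, 16.9 and 20.2 CPM in semaglutide mice and 13.5, 14.8 and 19 CPM in chow reversal mice, against 14.4, 16.0 and 21.3 CPM in vehicle mice and 11.5, 15.04 and 18.2 CPM in chow mice. All 4 groups overlapped, and the vehicle to chow difference was 0.18 ± 0.12 on the log2 scale (0.22). Mcm7 shares 7.25% of its exonic bases with Ap4m1.

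**Figure D3:**
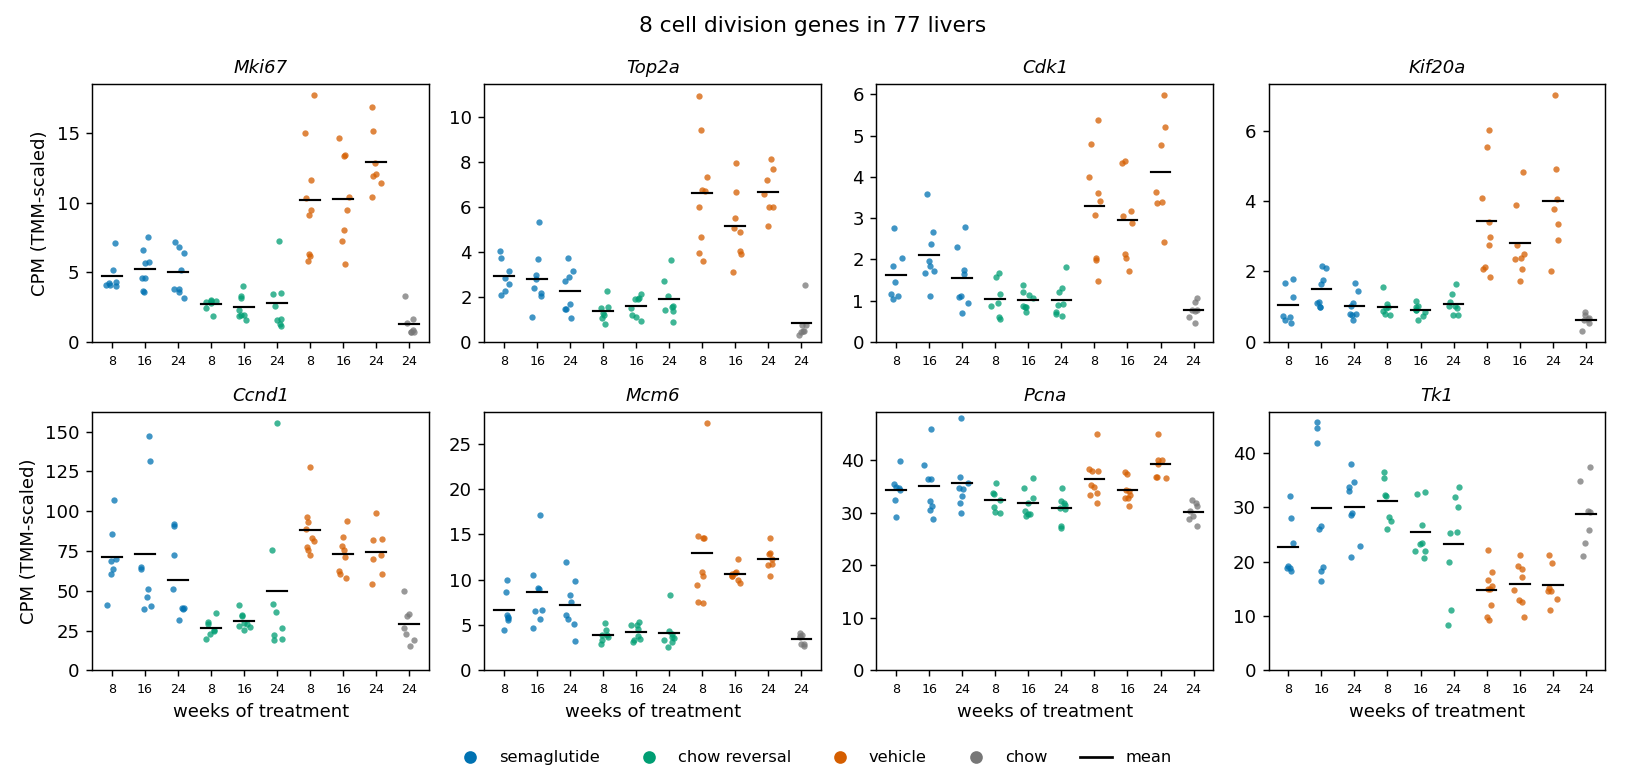
CPM of 8 division genes in each mouse (points) by weeks of treatment within the semaglutide, chow reversal, vehicle and chow arms, with a black bar at each group mean. Mki67 at 24 weeks lies at 3.18 to 7.19 CPM in semaglutide mice against 10.4 to 16.9 CPM in vehicle mice, while Tk1 lies at 20.8 to 37.97 CPM in semaglutide mice against 11.2 to 21.2 CPM in vehicle mice.

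The enzymes that supply deoxynucleotides did not move as a group. Of the 4, Rrm1 and Rrm2 (the large and small subunits of ribonucleotide reductase) were higher and Tk1 (thymidine kinase of the cytosol) was lower in vehicle than in chow mice, and Tyms (thymidylate synthase) had a log2 fold change of 0.02 (adjusted p = 0.92). Rrm1 had 7.69, 10.9 and 13.3 CPM in semaglutide mice and 8.33, 9.31 and 11.8 CPM in chow reversal mice at 24 weeks, against 12.45, 13.6 and 15.5 CPM in vehicle mice and 7.49, 9.10 and 10.1 CPM in chow mice. Every vehicle mouse was above every chow and every chow reversal mouse, and the semaglutide mice overlapped the vehicle mice. Its log2 fold changes were -0.34 ± 0.10 for semaglutide against vehicle (0.012), -0.51 ± 0.10 for chow reversal against vehicle (5.4e-05) and 0.60 ± 0.11 for vehicle against chow (2.5e-06). The semaglutide call was lost without semaglutide mouse 2, at -0.26 (0.056). Rrm2 averaged 9.44 ± 7.63 CPM in the 8 chow reversal mice at 24 weeks. Mouse 8 had 27.7 CPM and the others 2.89 to 9.25 CPM, so the mean lay above every mouse but that one. The log2 fold change of Rrm2 against vehicle, -0.08 (0.84), includes this mouse.

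Tk1 went against the other genes. At 24 weeks it had 20.8, 30.96 and 37.97 CPM in semaglutide mice and 8.33, 25.4 and 33.7 CPM in chow reversal mice, against 11.2, 14.7 and 21.2 CPM in vehicle mice and 21.1, 29.2 and 37.5 CPM in chow mice. Of the 8 semaglutide mice 7 were above every vehicle mouse, and 6 of the 7 vehicle mice were below every chow mouse. At 16 weeks it had 16.5, 26.3 and 45.7 CPM in semaglutide mice and 20.7, 23.4 and 32.9 CPM in chow reversal mice, against 9.83, 16.0 and 21.3 CPM in vehicle mice, and 5 of the 8 semaglutide mice were above every vehicle mouse. At 8 weeks it had 18.2, 19.1 and 32.2 CPM in semaglutide mice and 26.04, 32.1 and 36.5 CPM in chow reversal mice, against 9.35, 15.04 and 22.2 CPM in vehicle mice, and all 7 chow reversal mice were above every vehicle mouse.

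For Tk1 the fold change against vehicle, on the log2 scale, was 0.61 ± 0.20, 0.92 ± 0.20 and 0.94 ± 0.21 at 8, 16 and 24 weeks of semaglutide (adjusted p = 0.053, 0.0017 and 0.00055) and 1.07 ± 0.20, 0.69 ± 0.20 and 0.57 ± 0.21 with chow reversal (2.2e-05, 0.0061 and 0.025). Vehicle against chow was -0.88 ± 0.21 (0.00044). The chow reversal calls at 16 and 24 weeks were lost when libraries were scaled to their totals, and the 24-week one also without chow reversal mouse 1, 4 or 5 or without vehicle mouse 5. The semaglutide value at 8 weeks passed the threshold with DESeq2, with only the compared groups and without the libraries of the second run of library numbers. Those libraries held 45.7 and 41.9 CPM of Tk1 in semaglutide mice at 16 weeks and 33.7 CPM in 1 at 24 weeks. Tk1 overlaps the oppositely oriented Afmid, a formamidase of the kynurenine pathway, by 83 exonic bases, 1.6% of its exons. Afmid moved the same way, with 82.2 ± 19.6 CPM in semaglutide mice and 125.3 ± 43.99 CPM in chow reversal mice (SD, n = 8 each), against 45.9 ± 5.28 CPM in vehicle mice and 136.9 ± 18.6 CPM in chow mice (n = 7 each). Its log2 fold change was 0.84 for semaglutide (6.7e-05), 1.45 for chow reversal (3.6e-11) and -1.58 ± 0.17 for vehicle against chow (1.2e-12). The strand setting of the counting is not given in the sources used here, and the part of Afmid reads in the Tk1 counts was not tested.

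The mitotic genes made up 29 of the 48. All 29 (8 cyclin, Cdk1 and destruction genes, 8 kinase and checkpoint genes, 4 chromosome genes and 9 spindle genes) were higher in vehicle than in chow mice, with a median log2 fold change of 2.88 and a range of 1.46 to 3.71. Semaglutide lowered 26, 11 and 29 of them at 8, 16 and 24 weeks, with medians of -1.24, -0.75 and -1.48, and the 3 that were not called at 8 weeks were Aurkb, Kif11 and Nusap1. Chow reversal lowered 29 of the 29 at each time, with medians of -1.99, -1.70 and -1.997. Over the 14 replication and nucleotide genes the medians were 0.87 for vehicle against chow, -0.62, -0.14 and -0.49 with semaglutide and -0.83, -0.47 and -0.43 with chow reversal.

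Summed over the 29 mitotic genes, semaglutide mice at 24 weeks had 24.7, 31.8 and 44.3 CPM (lowest, median and highest) and chow reversal mice 14.7, 18.4 and 49.1 CPM, against 79.1, 86.8 and 123.7 CPM in vehicle mice and 9.33, 13.6 and 25.01 CPM in chow mice. The vehicle mice stood apart from the other 3 groups. At 8 weeks the sums were 25.5, 29.9 and 52.2 CPM in semaglutide mice and 17.3, 21.5 and 22.4 CPM in chow reversal mice, against 43.9, 70.7 and 129.2 CPM in vehicle mice. At 16 weeks they were 27.7, 39.2 and 58.5 CPM in semaglutide mice and 16.5, 20.9 and 27.1 CPM in chow reversal mice, against 48.3, 62.1 and 92.2 CPM in vehicle mice. At both of these times the chow reversal mice were below every semaglutide and every vehicle mouse, while the semaglutide range reached into the vehicle range.

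**Figure D4:**
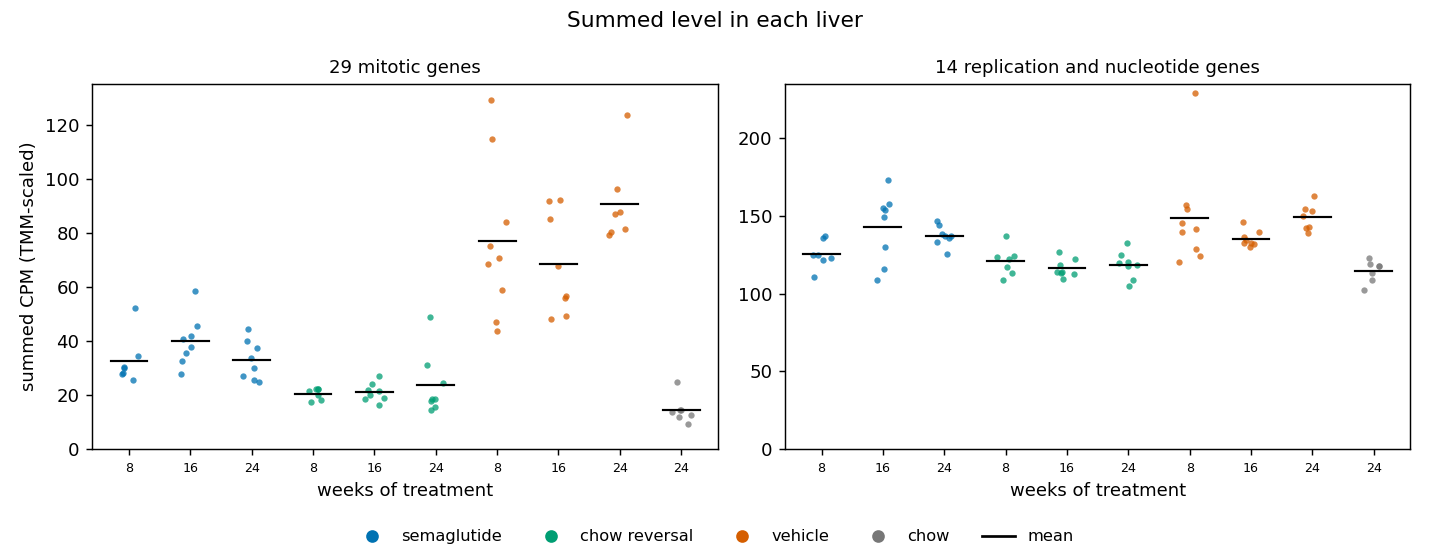
Summed CPM of the 29 mitotic genes and of the 14 replication and nucleotide genes in each mouse, by arm and weeks of treatment. The mitotic sums at 24 weeks lie at 24.7 to 44.3 CPM in semaglutide mice and 14.7 to 49.1 CPM in chow reversal mice against 79.1 to 123.7 CPM in vehicle mice, and the replication and nucleotide sums of these groups lie closer together.

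Mitotic cyclins and the machinery that destroys them moved together. All 8 genes (Ccna2, Ccnb1, Ccnb2, Cdk1, the factor Foxm1, the destruction genes Cdc20 and Ube2c, and Cdca3) were higher in vehicle than in chow mice, by a median of 2.85 on the log2 scale. Semaglutide lowered 8, 5 and 8 of them at 8, 16 and 24 weeks, and chow reversal lowered 8 at each time. Cdk1, the kinase that drives mitosis, had 0.699, 1.38 and 2.78 CPM in semaglutide mice and 0.629, 0.909 and 1.83 CPM in chow reversal mice at 24 weeks, against 2.43, 3.63 and 5.98 CPM in vehicle mice and 0.451, 0.767 and 1.05 CPM in chow mice. Of the 8 semaglutide mice 7 were below every vehicle mouse, and the chow reversal and chow mice were all below them. Its log2 fold changes at 24 weeks were -1.40 ± 0.26 for semaglutide (adjusted p = 4.3e-05), -1.997 ± 0.27 for chow reversal (6.7e-09) and 2.42 ± 0.29 for vehicle against chow (7e-11). At 8 and 16 weeks semaglutide gave -1.02 (0.0073) and -0.49 (0.18).

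Cdca3, part of a ubiquitin ligase that permits entry into mitosis, had 0.785, 1.79 and 3.06 CPM in semaglutide mice and 1.06, 1.41 and 2.36 CPM in chow reversal mice at 24 weeks, against 3.19, 4.40 and 6.33 CPM in vehicle mice and 1.19, 1.66 and 2.11 CPM in chow mice. The vehicle mice overlapped none of the other groups. The log2 fold changes were -1.36 ± 0.26 for semaglutide (7.9e-05), -1.64 ± 0.27 for chow reversal (7e-07) and 1.46 ± 0.27 for vehicle against chow (7.1e-06). Cdca3 differed from chow by 0.10 with semaglutide (0.79) and -0.18 with chow reversal (0.84). Foxm1, the transcription factor that drives late cell cycle genes, had a log2 fold change of 3.23 for vehicle against chow (1.4e-11) and of -1.003, -0.90 and -1.34 with semaglutide at 8, 16 and 24 weeks (0.034, 0.035 and 0.00064). Cdc20, which activates the anaphase-promoting complex, fell by 1.88, 0.94 and 1.75 on the log2 scale with semaglutide at the 3 times (0.00011, 0.035 and 4.9e-05).

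The mitotic kinases and checkpoint genes were 8. They (Aurka, Aurkb, Birc5, Cdca8, Plk1, Bub1, Bub1b and Ttk) were all higher in vehicle than in chow mice, by a median of 2.61 on the log2 scale. Semaglutide lowered 7 of them at 8 weeks and 8 at 24 weeks. At 16 weeks none of them was called lower with semaglutide, and their median log2 fold change was -0.72. Chow reversal lowered 8 at each time. Birc5 encodes survivin, a subunit of the chromosomal passenger complex. It had 0.977, 1.52 and 2.94 CPM in semaglutide mice and 0.550, 1.204 and 2.41 CPM in chow reversal mice at 24 weeks, against 2.64, 3.30 and 5.09 CPM in vehicle mice and 0.602, 0.984 and 1.64 CPM in chow mice. The semaglutide mice overlapped the vehicle mice, and the chow reversal mice did not. The log2 fold changes were -1.11 ± 0.26 for semaglutide (adjusted p = 0.00086), -1.47 ± 0.26 for chow reversal (4.8e-06) and 1.78 ± 0.28 for vehicle against chow (1.2e-07).

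Cdca8, which encodes borealin of the same complex, had 0.541, 1.57 and 2.55 CPM in semaglutide mice and 0.527, 0.894 and 2.27 CPM in chow reversal mice at 24 weeks, against 2.05, 2.91 and 4.35 CPM in vehicle mice and 0.0746, 0.697 and 0.932 CPM in chow mice. Both treated groups overlapped the vehicle mice, and the chow mice did not. On the log2 scale Cdca8 changed by -0.89 ± 0.27 for semaglutide (0.011), -1.52 ± 0.28 for chow reversal (7e-06) and 2.18 ± 0.30 for vehicle against chow (5.9e-09). At 8 weeks semaglutide gave -0.79 for Birc5 (0.048) and -0.88 for Cdca8 (0.036), calls that were lost in 9 and 10 of the 16 fits that each left out 1 mouse. Plk1, the Polo kinase of mitotic entry and exit, had a log2 fold change of -1.74 with semaglutide at 24 weeks (0.00024), and Aurka, the spindle pole kinase, one of -1.55 (3.8e-05).

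The chromosome genes had the largest median rise of the role groups. Mki67, Top2a, Cenpe and Cenpf were higher in vehicle than in chow mice by 3.02 to 3.71 on the log2 scale, with a median of 3.43. Cenpe and Cenpf had only 0 to 0.42 and 0.07 to 0.32 CPM in chow mice, so the size of their rise rests on levels near 0. Semaglutide lowered 4, 3 and 4 of the 4 at 8, 16 and 24 weeks, and chow reversal 4 at each time. Mki67 encodes the Ki-67 protein that coats mitotic chromosomes and is used to stain dividing cells. At 24 weeks it had 3.18, 4.50 and 7.19 CPM in semaglutide mice and 1.14, 2.12 and 7.24 CPM in chow reversal mice, against 10.4, 12.1 and 16.9 CPM in vehicle mice and 0.677, 0.828 and 3.30 CPM in chow mice. Every vehicle mouse was above every mouse of the other 3 groups. The log2 fold changes were -1.37 ± 0.26 for semaglutide (adjusted p = 7.4e-05), -2.19 ± 0.27 for chow reversal (8.2e-10) and 3.30 ± 0.31 for vehicle against chow (1.4e-14). At 8 weeks it had 4.00, 4.22 and 7.14 CPM in semaglutide mice and 1.85, 2.88 and 3.03 CPM in chow reversal mice, against 5.80, 9.49 and 17.7 CPM in vehicle mice. The chow reversal mice were below all others at that time, and the semaglutide mice overlapped the vehicle mice. Semaglutide gave -1.11 ± 0.26 (0.004) at 8 weeks and -0.97 ± 0.26 (0.008) at 16 weeks.

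Top2a, the topoisomerase that untangles sister chromatids, had 1.05, 2.18 and 3.74 CPM in semaglutide mice and 0.865, 1.58 and 3.65 CPM in chow reversal mice at 24 weeks, against 5.14, 6.55 and 8.13 CPM in vehicle mice and 0.318, 0.488 and 2.53 CPM in chow mice. The vehicle mice again overlapped none of the other groups. Its log2 fold changes were -1.53 ± 0.28 for semaglutide (2.7e-05), -1.80 ± 0.28 for chow reversal (3.1e-07) and 3.02 ± 0.32 for vehicle against chow (1.3e-12). Chow mouse 5 held the 2.53 CPM of Top2a and the 3.30 CPM of Mki67. Cenpe, a kinetochore motor, had a log2 fold change of 3.71 for vehicle against chow (2.1e-10), from a chow level near 0.

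The spindle and cytokinesis genes had median log2 fold changes of -1.55, -0.75 and -1.54 with semaglutide at 8, 16 and 24 weeks. All 9 (Kif11, Kif20a, Kif23, Nusap1, Prc1, Tpx2, Hmmr, Ect2 and Anln) were higher in vehicle than in chow mice, by a median of 2.71 on the log2 scale. Semaglutide lowered 7, 3 and 9 of them and chow reversal 9 at each time. Kif20a, a kinesin of the spindle midzone, had 0.611, 0.907 and 1.69 CPM in semaglutide mice and 0.762, 1.02 and 1.65 CPM in chow reversal mice at 24 weeks, against 2.01, 3.77 and 6.997 CPM in vehicle mice and 0.301, 0.637 and 0.843 CPM in chow mice. No vehicle mouse overlapped another group. Kif20a had log2 fold changes of -1.93 ± 0.26 for semaglutide (adjusted p = 4.4e-08), -1.88 ± 0.26 for chow reversal (9.1e-09) and 2.68 ± 0.28 for vehicle against chow (1.1e-12). At 8 weeks its semaglutide mice, at 0.523 to 1.79 CPM, were below all vehicle mice, at 1.84 to 6.03 CPM, with a log2 fold change of -1.72 ± 0.25 (2.9e-06). Kif20a shares 29.3% of its exonic bases with Cdc23, so part of its counts may belong to that gene.

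Tpx2, which activates Aurka on the spindle, had 0.350, 1.08 and 1.44 CPM in semaglutide mice and 0.229, 0.620 and 1.83 CPM in chow reversal mice at 24 weeks, against 2.47, 3.02 and 5.14 CPM in vehicle mice and 0, 0.303 and 0.562 CPM in chow mice. The vehicle mice lay above all others. Log2 fold changes were -1.88 ± 0.34 for semaglutide (2.2e-05), -2.08 ± 0.34 for chow reversal (8.2e-07) and 3.55 ± 0.40 for vehicle against chow (1.4e-11). Hmmr, a spindle assembly protein, fell by 2.17 on the log2 scale with semaglutide at 24 weeks (6.1e-05) and by 3.05 with chow reversal at 8 weeks (4e-07). Counted over all roles, every semaglutide mouse was below every vehicle mouse for 5 of the 48 genes at 8 weeks (E2f1, Mcm2, Kif20a, Kif23 and Anln; 1.13% of all genes) and for 19 at 24 weeks (17 of them mitotic; 2.97% of all genes). Every chow reversal mouse was below every vehicle mouse for 28 at 24 weeks (21 of them mitotic; 5.15% of all genes).

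Set against each other, the treated groups differed in the same direction for every gene that was called. At 8 weeks 9 of the 48 genes were higher in semaglutide than in chow reversal mice (3.52% of all genes were, and 2.64% were lower), at 16 weeks 21 (6.24% higher and 3.56% lower) and at 24 weeks 7 (7.77% higher and 8.72% lower). Over the 48, 0 were called lower at any of the times by edgeR or by DESeq2, and 1, 0 and 1 were lower at an unadjusted p below 0.05. Medians over the 48 were 0.62, 0.93 and 0.32 on the log2 scale. Mcm3 and Mcm6 of the MCM helicase were the genes called at all 3 times. Mcm6 exceeded chow reversal by 0.76, 1.03 and 0.81 on the log2 scale (adjusted p = 0.036, 0.00066 and 0.0073) and Mcm3 by 0.51, 0.56 and 0.44 (0.05, 0.011 and 0.043). At 24 weeks the other genes called were Gins2, Pcna, Tyms, Bub1b and Mki67, and Mki67 had a log2 fold change of 0.83 (0.026). The Mki67 call was lost without semaglutide mouse 2, 4 or 6 or chow reversal mouse 1, 4, 5 or 8. The count at 8 weeks was 4 without semaglutide mouse 3. The count at 16 weeks was 13 without semaglutide mouse 2. The count at 24 weeks was 15 without chow reversal mouse 7, 2 without chow reversal mouse 1 or 4 or semaglutide mouse 4, 3 without chow reversal mouse 3 or semaglutide mouse 6, and 4 without chow reversal mouse 5 or 8. The calls at 24 weeks were lost where the 2 groups were fitted alone, a fit in which 3.93% of all genes were called. The group means stood in the order vehicle, semaglutide, chow reversal from highest to lowest for 44, 41 and 39 of the 48 genes at 8, 16 and 24 weeks. This order was not counted over all genes, so these numbers are a description.

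Neither treatment brought all of the genes to the chow level. At 24 weeks 31 of the 48 genes were higher in semaglutide than in chow mice (17.9% of all genes were, and 13.5% were lower), among them 23 of the 29 mitotic genes, with a median log2 fold change of 0.98 over the 48. With chow reversal 6 were higher than in chow mice (5.72% of all genes were, and 0.913% were lower): Rrm2, Ccnb1, Mki67, Top2a, Cenpe and Tpx2, with a median of 0.71 over the 48. These comparisons share the 7 chow mice with each other and with the vehicle comparison, and they were not refitted with a mouse left out. Of the chow reversal mice at 24 weeks, mouse 8 had 27.7 CPM of Rrm2, and the next 9.25 CPM. Mouse 7 was highest for 25 of the 29 mitotic genes, with 7.24 CPM of Mki67 where the next had 3.54 CPM. Mki67 exceeded chow by 1.94 on the log2 scale with semaglutide (adjusted p = 5.4e-07) and by 1.11 with chow reversal (0.016). As ratios of group means, the median gene stood at 1.97 times the chow mean in semaglutide mice and 1.62 times in chow reversal mice, against 5.34 times in vehicle mice. For the chromosome genes the medians were 3.44 times with semaglutide and 2.46 times with chow reversal, against 10.7 times in vehicle mice. For the replication genes they were 1.39 and 1.14 times, against 2.03 times in vehicle mice. Where the compared groups were fitted alone, 16 genes were higher with semaglutide than in chow mice, as were 1992 of all 13091 genes tested. The calls with chow reversal were lost, in a fit that called 129 of all 12887 genes tested in either direction.

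**Figure D5:**
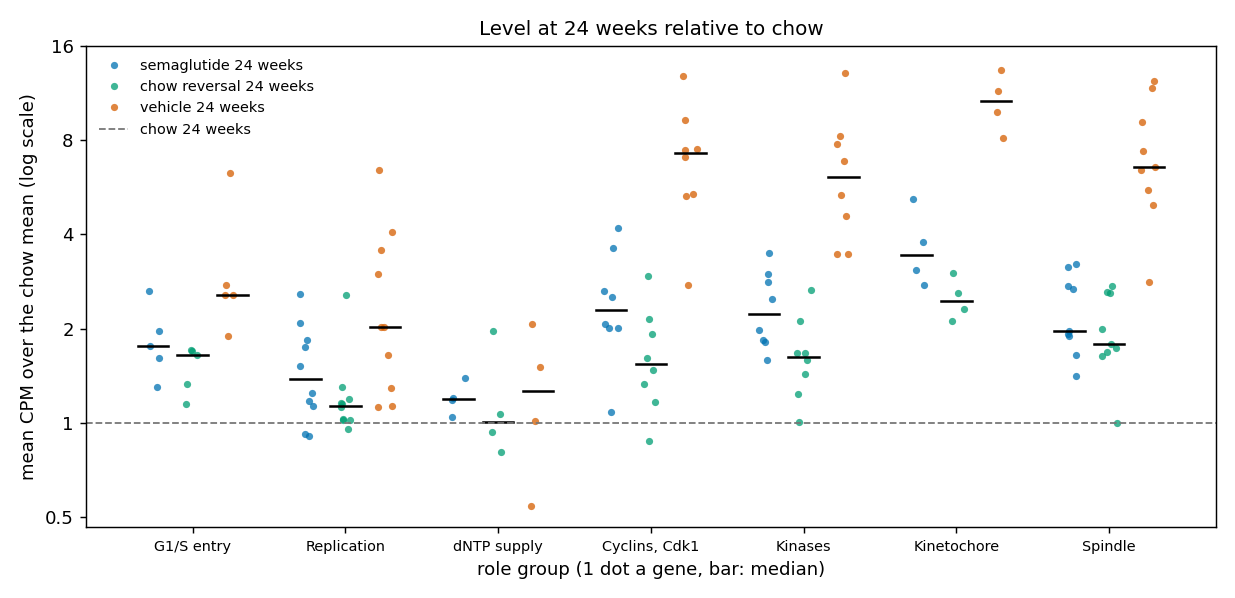
Group mean over the chow mean at 24 weeks for each division gene (points; log axis), by role group and for semaglutide, chow reversal and vehicle mice, with a bar at the median and a dashed line at the chow level. Chromosome genes have medians of 3.44 with semaglutide and 2.46 with chow reversal against 10.7 in vehicle mice, and deoxynucleotide genes medians of 1.19 and 1.00 against 1.26.

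A change with time was not shown for any of the 48 genes. The median log2 fold change of the 48 genes in vehicle mice at 24 against 8 weeks was 0.13. With edgeR 0 of the 48 were called, 0 had an unadjusted p below 0.05 and DESeq2 called 0, where 0.792% of all genes were called. The effect of semaglutide at 24 weeks less its effect at 8 weeks had a median of -0.10, with 0 of the 48 called by edgeR, 0 with an unadjusted p below 0.05 and 0 called by DESeq2 (0.0604% of all genes were called). For chow reversal the same difference had 4 genes with an unadjusted p below 0.05, all higher (Ccnd1, Ccne2, Mcm2 and Mcm4), 0 called by edgeR and 0 by DESeq2 (0.215% of all genes). The lower count of calls at 16 weeks led to a further comparison, chosen after the data were seen. The effect of semaglutide at 24 weeks less its effect at 16 weeks had a median of -0.62 and was below 0 for 46 of the 48 genes, of which 10 had an unadjusted p below 0.05. With edgeR 0 passed the adjusted threshold and DESeq2 called 0 (0.00671% of all genes were called). The number of calls differed between the times, and a difference of the effects did not pass the test for any of the 48 genes.

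Other division genes were counted in the same comparisons. Of 72 further genes of replication, the kinetochore and mitosis, 69 were tested. In vehicle against chow mice 46 were higher and 3 lower (25.8% and 22% of all genes), with a median log2 fold change of 1.17. Semaglutide lowered 22, 11 and 35 of them at 8, 16 and 24 weeks (3.51%, 5.8% and 13.6% of all genes). Chow reversal lowered 44, 36 and 44 (17.9%, 16.2% and 19.1%). Semaglutide raised 3 of them at 16 weeks and 2 at 24 weeks (6.44% and 10.8% of all genes). Chow reversal raised 4, 3 and 2 (14.2%, 12.1% and 17%). Stmn1, a microtubule destabiliser of the spindle, averaged 9.75 ± 2.26 CPM in semaglutide mice and 6.67 ± 1.86 CPM in chow reversal mice at 24 weeks (SD, n = 8 each), against 20.9 ± 7.57 CPM in vehicle mice and 5.86 ± 0.757 CPM in chow mice (n = 7 each). Its log2 fold change with semaglutide was -1.10 (adjusted p = 4.4e-05), with chow reversal -1.64 (1.2e-09) and in vehicle against chow 1.83 (6.7e-11). Incenp, the scaffold of the passenger complex, had -0.81 (0.0029), -1.37 (3.5e-07) and 1.80 (5.5e-10) in the same comparisons. Lig1, the ligase that joins Okazaki fragments, had -0.60 (0.011), -1.14 (8.8e-07) and 1.77 (1.4e-11). Nuf2 of the outer kinetochore had -1.27 (0.0051), -1.87 (2.7e-05) and 3.60 (3e-10), with a chow mean of only 0.14 CPM. Mcm10, a replication initiation factor named after its values were seen, went the way of Tk1, with 0.78 for semaglutide (0.0066), 1.05 for chow reversal and -1.24 for vehicle against chow. Cenpm, a centromere protein also named after its values were seen, had -1.03 with semaglutide at 24 weeks (0.033) and 0.84 with chow reversal (0.045).

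Markers of other liver cells differed between the groups, not all in the same way. All 6 macrophage markers were higher in vehicle than in chow mice, where 25.8% of all genes were higher and 22% lower. Semaglutide lowered 3 of the 6 at 16 weeks and 5 at 24 weeks (5.8% and 13.6% of all genes). Chow reversal lowered 5, 6 and 6 of these markers at 8, 16 and 24 weeks (17.9%, 16.2% and 19.1% of all genes). Their summed level at 24 weeks was 261.2 to 493.7 CPM in semaglutide mice and 70.02 to 309.4 CPM in chow reversal mice, against 419.8 to 617.7 CPM in vehicle mice and 68.6 to 247.8 CPM in chow mice. All 6 stellate cell markers, 4 of 5 T cell markers and 4 of 5 cholangiocyte markers were also higher in vehicle than in chow mice. All 6 hepatocyte markers that matched a gene symbol were lower (Tf, also listed, had no match and is left out). Their sums were 59960 to 114300 CPM in semaglutide mice and 75870 to 104500 CPM in chow reversal mice. They were 43350 to 60540 CPM in vehicle mice and 104000 to 134100 CPM in chow mice. Endothelial markers summed to 157.0 to 211.3 CPM in semaglutide mice and 100.3 to 163.3 CPM in chow reversal mice, against 139.8 to 195.4 CPM in vehicle mice and 130.4 to 185.2 CPM in chow mice, with 3 of 5 higher in vehicle than in chow mice. For B cells and neutrophils 1 of 4 was higher in each list, near the 25.8% of all genes. In the erythroid list 2 of the 3 tested markers were lower in vehicle than in chow mice. No marker was at 0 in every library of a group. The part of these cells in the division genes was not tested.

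The mouse with the highest summed mitotic level was highest for a varying number of the 29 mitotic genes in its group. It was highest for 23, 12 and 8 in semaglutide mice at 8, 16 and 24 weeks, 3, 11 and 25 in chow reversal mice, 19, 9 and 20 in vehicle mice and 18 in chow mice. Where the number was smallest, in chow reversal mice at 8 weeks, the top sum of 22.4 CPM lay beside the next at 22.2 CPM. By macrophage markers these mice ranked 1 of 7, 7 of 8 and 4 of 8 in the semaglutide groups, 7 of 7, 1 of 8 and 1 of 8 in the chow reversal groups, 8 of 9, 2 of 8 and 5 of 7 in the vehicle groups and 1 of 7 in chow mice. By cholangiocyte markers they ranked 1 of 7, 1 of 8 and 3 of 8 with semaglutide, 2 of 7, 1 of 8 and 1 of 8 with chow reversal, 9 of 9, 3 of 8 and 7 of 7 with vehicle and 1 of 7 in chow mice. Semaglutide mouse 3 at 8 weeks had 486.5 CPM of macrophage markers (group median 290.5 CPM). It also ranked 1 of 7 for T cell (16.64 CPM, median 5.61 CPM), stellate cell and B cell markers. For erythroid, neutrophil, hepatocyte and endothelial markers it ranked 2, 3, 4 and 5 of 7. Chow reversal mouse 7 at 24 weeks had 309.4 CPM of macrophage markers (median 146.2 CPM) and 524.9 CPM of cholangiocyte markers (median 73.95 CPM). It also ranked 1 of 8 for neutrophil (13.78 CPM, median 4.34 CPM) and T cell markers and 2 of 8 for stellate and B cell markers. For endothelial markers it ranked 6 of 8, and for hepatocyte and erythroid markers 8 of 8. Vehicle mouse 4 at 8 weeks, also highest for 12 of the 14 replication and nucleotide genes, had 310.6 CPM of macrophage markers (median 390.0 CPM) and 119.9 CPM of cholangiocyte markers (median 224.3 CPM). It ranked 9 of 9 for stellate and endothelial markers and 7 of 9 for T cell, neutrophil and erythroid markers. For B cell and hepatocyte markers it ranked 2 and 3 of 9. The relation of these sums to the mitotic level was not tested.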

How the data were processed

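The authors aligned liver RNA reads (directional library kit, NextSeq) with STAR 2.7.3a and quantified them with Salmon 1.2.0, with FastQC 0.11.9, Picard and DESeq2 also named in the submitters' notes, on mouse build GRCm38. They deposited estimated counts per gene (7.548% of values not whole), which were rounded here. The strand setting and annotation release are not given in the sources used here. Symbols came from GENCODE M21 for 55141 of 55487 genes, and promoter windows from RefSeq (GRCm38.p6). R 4.3.3 was used with edgeR 4.0.16, limma 3.58.1 and DESeq2 1.42.0. Genes were kept by filterByExpr with a minimum count of 10, libraries were scaled by TMM, and 1 quasi-likelihood fit over 77 libraries in 10 groups gave each comparison, with Benjamini-Hochberg adjustment over 14904 genes and a threshold of 0.05. The method was tested on simulated data. CPM are TMM-scaled. Alternatives were DESeq2 (with the same filter), RLE factors, library totals, no filter, only the compared groups, leaving out the second run of library numbers, a block on library numbers, and each mouse left out in turn. The second run of library numbers holds 3 libraries, and the labels do not say what sets it apart. They had 3.34 to 4.11% of their counts in predicted genes, against 1.07 to 2.74% in the other 74. The named genes were the 2 with the highest mean CPM in each role group, any called against its group (Tk1), and for other lists the 4 with the smallest p in vehicle against chow, and genes beside these are given by their fits. The members and lists were chosen with earlier results of these data known, so counts over them are descriptions.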

Additional observations from a re-analysis of the deposited data

Results flagged for a closer look

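Of 210 groups of mice examined over the summed role groups and the named genes, 29 held 1 mouse that stood apart from the rest by Dixon's test, which by chance flags about 1 in 20 groups. The values below are CPM, the values of 1 mouse are not independent of each other, and no cause was tested. Semaglutide mouse 3 at 8 weeks was highest for the cyclin sum (15.66), the kinase sum (10.54), the chromosome sum (13.65), the spindle sum (12.32), Cdca8 (2.361) and Mki67 (7.14). Semaglutide mouse 2 at 16 weeks was highest for Rrm1 (16.88), and semaglutide mouse 8 at 24 weeks for Pcna (48.08). Chow reversal mouse 7 was highest for Kif20a (1.565) at 8 weeks, and mouse 4 of that group for Tpx2 (1.15). Chow reversal mouse 5 at 16 weeks was lowest for the kinase sum (3.165). At 24 weeks chow reversal mouse 7 was highest for the chromosome sum (13.72) and Mki67 (7.244), and mouse 8 for the G1 sum (162.3) and Ccnd1 (155.2). Vehicle mouse 4 at 8 weeks was highest for the G1 sum (148.3), the replication sum (162.3), the nucleotide sum (66.25), Ccnd1 (127.7), Pcna (44.97), Mcm7 (22.75) and Birc5 (4.964). Vehicle mouse 1 at 24 weeks was highest for the kinase sum (22.79), the chromosome sum (31.22) and Tpx2 (5.143), and vehicle mouse 6 for Pcna (44.89). Chow mouse 5 was highest for the chromosome sum (6.463), Mki67 (3.302) and Top2a (2.529).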

How the results depend on the processing

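The cause of each change below was not tested. With DESeq2 and with RLE factors no count of called division genes moved past 1.5 times its main value. For semaglutide against vehicle at 16 weeks 13 genes were called in the main fit. The number was 21 with library totals, 6 with no filter and 2 without the second run of library numbers. It was 3 with the block on library numbers and 5 with only the compared groups. Of all genes tested in these settings 18.3%, 4.26%, 4.96%, 4.78% and 3.90% were called, in that order. The main fit had 5.8% lower and 6.44% higher. With no filter, semaglutide against chow reversal gave 5 (8 weeks), 13 (16 weeks) and 1 (24 weeks), against 9, 21 and 7. Of all genes tested 1.88%, 3.84% and 5.65% were then called. With only the compared groups it gave 12 at 16 weeks and 0 at 24 weeks, with 6.005% and 3.93% of all genes called. The main fit had 3.52%, 6.24% and 7.77% of all genes higher and 2.64%, 3.56% and 8.72% lower at the 3 times. With only the compared groups 16 genes, against 31, differed between semaglutide and chow (26.7% of all genes). Between chow reversal and chow 0, against 6, differed (1.00%), which was 10 with library totals (9.31%). In the main fit 17.9% of all genes were higher and 13.5% lower with semaglutide than in chow mice. With chow reversal 5.72% were higher and 0.913% lower. With 1 mouse left out the number was 44 to 45 for vehicle against chow, 24 to 37, 4 to 18 and 37 to 42 for semaglutide against vehicle at 8, 16 and 24 weeks, 42 to 44, 40 to 40 and 40 to 42 for chow reversal against vehicle, and 4 to 9, 13 to 28 and 2 to 15 for semaglutide against chow reversal. Of 98 values for named genes, 97 kept their call with DESeq2, 98 with RLE factors, 94 with no filter, 92 with only the compared groups, 91 with the block, 91 without the second run of numbers and 86 with library totals, and no called value changed sign under these settings. No paired analysis was possible because the groups share no animal numbers. The block above is on sets of consecutive library numbers, which mostly hold about 1 library of each group, though some sets lack groups. The second run of library numbers is a set of its own, with 3 semaglutide libraries and none of another arm. The block therefore does not compare these libraries with vehicle mice inside a set. The lowest libraries, near 8883150 counts, limit the mitotic genes at a few CPM most.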

Other observations

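Of 24 genes that restrain the cycle or are other G1 cyclins and kinases, 8 were higher and 3 lower in vehicle than in chow mice at 24 weeks, where 25.8% of all genes were higher and 22% lower. Semaglutide lowered 2 at 16 weeks (5.8% of all genes), and lowered 4 and raised 1 at 24 weeks (13.6% and 10.8%). Chow reversal lowered 7 at 8 weeks (17.9%), lowered 5 and raised 1 at 16 weeks (16.2% and 12.1%), and lowered 5 and raised 2 at 24 weeks (19.1% and 17%). Cdkn1a, the p21 inhibitor of cyclin-dependent kinases, averaged 9.599 ± 3.87 CPM in semaglutide mice and 13.6 ± 20.1 CPM in chow reversal mice at 24 weeks (SD, n = 8 each), against 23.5 ± 4.26 CPM in vehicle mice and 4.04 ± 2.25 CPM in chow mice (n = 7 each). The chow reversal mice ran from 1.45 to 58.4 CPM and reached past the vehicle mice. Its log2 fold change against vehicle by edgeR was -0.85, -1.37 and -1.29 at 8, 16 and 24 weeks of semaglutide (adjusted p = 0.22, 0.018 and 0.017) and -2.32, -2.47 and -0.78 with chow reversal (2.8e-05, 3.6e-06 and 0.13), and vehicle exceeded chow by 2.55 (3.7e-06).

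Cdkn2c, the p18 inhibitor of Cdk4 and Cdk6, averaged 5.91 ± 1.48 CPM in semaglutide mice and 4.80 ± 1.52 CPM in chow reversal mice at 24 weeks (n = 8 each), against 8.85 ± 1.30 CPM in vehicle mice and 1.81 ± 0.719 CPM in chow mice (n = 7 each). Its log2 fold change was -0.58 with semaglutide (adjusted p = 0.01 by edgeR), -0.88 with chow reversal (3.7e-05) and 2.28 in vehicle against chow (5.3e-16). Gas1, which is tied to growth arrest, went the other way, with 0.75 for semaglutide (0.001), 0.73 for chow reversal (0.00059) and -1.02 for vehicle against chow (2.4e-06). Ccnd2, cyclin D2, had -0.43 with semaglutide (0.059), -0.83 with chow reversal (9.8e-05) and 1.02 in vehicle against chow (2.8e-06).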
